A study of Mus musculus with 6 samples.

Results

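Genes named Zfp followed by a number encode zinc finger proteins, and 206 of them were followed here among the 17872 genes of a count table from mouse BV2 cells, an immortalised microglial line. Members were selected on 2 things only: a symbol made of Zfp, a number and at most 1 letter, which 325 symbols met, and a mean over the 6 libraries of at least 5 CPM (counts per 1000000 counts of the library total). The other 119 symbols lay below that floor. The floor uses abundance, so the members' abundance is a description. The rule does not use the difference between the groups, but a few members, given below, passed the floor through 1 group only. The members were also chosen with earlier results of these data known. RNA was sequenced from 3 libraries labelled Tfam-KO, from BV2 cells in which Tfam was targeted with CRISPR-Cas9, and from 3 libraries labelled WT, from BV2 cells of wild-type genotype. Both groups were the same line in the same medium, the labels give no other treatment, and the protocol names puromycin selection at 2 µg/mL after editing without saying whether WT cells also received it. The sources used here do not give whether the edited cells are a clone or a pool. The comparison asks how loss of Tfam, which packages and transcribes mitochondrial DNA, alters the transcriptome of microglial cells.

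Most Zfp proteins carry tandem C2H2 fingers, each a short loop held by a zinc ion that reads a few bases of DNA. In vertebrates the largest class also has a KRAB box, which recruits TRIM28 and, through it, the histone methyltransferase SETDB1 and HP1 proteins, and many of these proteins silence retroelements. Many KRAB genes arose by tandem duplication and stand in clusters. The symbol is not a family in the strict sense: Zfp36 has CCCH fingers and binds mRNA, and several other members work on ribosomes, RNA or ubiquitin rather than on DNA.

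The label as transcription factor genes therefore holds for most members and not for all. A C2H2 pattern was found at least once in the encoded protein of all but 4 members (Zfp36, Zfp330, Zfp503 and Zfp703), with a median of 10 fingers and a maximum of 36, in Zfp142. A KRAB box was found in 106 members and not in 100. KRAB members had a median of 11 fingers and a median level of 10.7 CPM over the 6 libraries, while members without the box had a median of 7 fingers and 29.4 CPM.

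The promoters below are shown because the 2 chromosome 8 neighbours Zfp869 and Zfp964 moved together, Zfp13 had the largest increase, and Zfp385a and Zfp36 were 2 of the decreases with the highest levels. They are RefSeq windows on GRCm38.p6, from 250 bases before to 50 bases after the annotated gene start, written 5′ to 3′ along the gene. Capitals mark exact matches, on either strand, to a GC box (GGGCGG), an ETS motif (CCGGAAG) or a YY1 motif (ATGGCGGC).
Zfp13 (chr17:23599438-23599737, minus strand): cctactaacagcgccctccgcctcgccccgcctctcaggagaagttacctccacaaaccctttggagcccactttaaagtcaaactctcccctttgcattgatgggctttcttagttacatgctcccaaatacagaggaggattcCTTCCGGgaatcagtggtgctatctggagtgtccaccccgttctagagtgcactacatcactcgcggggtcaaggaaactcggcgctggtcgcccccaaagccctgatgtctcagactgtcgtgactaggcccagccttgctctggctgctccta
Zfp869 (chr8:69716853-69717152, minus strand): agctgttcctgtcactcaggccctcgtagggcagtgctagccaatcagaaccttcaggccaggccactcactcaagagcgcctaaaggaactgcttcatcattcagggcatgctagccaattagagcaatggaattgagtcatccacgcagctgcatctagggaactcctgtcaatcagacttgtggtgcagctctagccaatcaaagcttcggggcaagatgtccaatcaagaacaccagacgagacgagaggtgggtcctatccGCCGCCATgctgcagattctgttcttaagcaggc
Zfp964 (chr8:69654306-69654605, plus strand): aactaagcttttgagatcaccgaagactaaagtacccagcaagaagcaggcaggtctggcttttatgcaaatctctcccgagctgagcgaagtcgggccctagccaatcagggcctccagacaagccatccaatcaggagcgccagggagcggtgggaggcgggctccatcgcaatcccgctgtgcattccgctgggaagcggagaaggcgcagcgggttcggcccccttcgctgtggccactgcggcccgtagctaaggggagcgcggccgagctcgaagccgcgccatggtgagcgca
Zfp385a (chr15:103340037-103340336, minus strand): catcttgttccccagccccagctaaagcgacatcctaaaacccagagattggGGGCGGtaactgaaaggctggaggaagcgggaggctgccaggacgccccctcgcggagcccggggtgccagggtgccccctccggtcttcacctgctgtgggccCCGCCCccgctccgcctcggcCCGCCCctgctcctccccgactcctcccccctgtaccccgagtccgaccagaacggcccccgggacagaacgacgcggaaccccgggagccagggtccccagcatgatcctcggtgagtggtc
Zfp36 (chr7:28379179-28379478, minus strand): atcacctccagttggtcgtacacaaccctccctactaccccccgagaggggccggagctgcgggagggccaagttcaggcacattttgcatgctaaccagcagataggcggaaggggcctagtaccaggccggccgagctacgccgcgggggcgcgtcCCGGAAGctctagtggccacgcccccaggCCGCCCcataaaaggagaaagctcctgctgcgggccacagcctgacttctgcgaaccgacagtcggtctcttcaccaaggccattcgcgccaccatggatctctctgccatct

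The Zfp385a window held 3 GC boxes, that of Zfp36 held 1 GC box and 1 ETS motif, and that of Zfp13 held 1 ETS motif. Zfp869 had 1 YY1 motif and Zfp964 held none of these letters, so the neighbours that moved together did not share a match. A promoter window was matched by symbol for 174 of the 206 members. The ETS motif was present in 22.4% of them, against 9.12% of all 27025 promoters in the table, and the YY1 motif in 6.32% against 2.38%. The TATA letters (TATAAA) were present in 6.32% of member promoters and 14.2% of all promoters. GC boxes were present in 35.1% of KRAB members' promoters and 60.0% of those without a KRAB box, with 35.9% over all promoters. All promoters include those of genes outside the count table, while members averaged at least 5 CPM. Shares for promoters of genes at a similar level were not computed. Each motif was counted on its own, so overlapping matches count for each. By call, described below, the ETS motif was present in 18.4% of promoters of members higher in Tfam-KO, 18.8% of lower ones and 24.8% of those not called. These matches are letters in a window and not shown binding sites.

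From here on, CPM are scaled with TMM factors unless stated otherwise, and fold changes are Tfam-KO over WT. The targeted gene itself did not fall in the libraries labelled Tfam-KO. Tfam mRNA measured 40.9, 42.6 and 43.1 CPM in the Tfam-KO libraries, against 39.0, 38.5 and 37.0 CPM in WT libraries (log2 fold change 0.14 ± 0.087, SE; edgeR quasi-likelihood test with Benjamini-Hochberg adjustment, adjusted p = 0.193), with no value per exon to show whether the edited part was lost. With library totals in place of TMM factors, and with limma on the authors' log2 table, it was called higher (log2 fold change 0.24 in both; adjusted p = 0.0403 and 0.0349). Library totals were 13850691 to 20889786 counts in Tfam-KO and 14642397 to 28418133 in WT. Summed over the 9 microglia and macrophage markers analysed, of 10 listed, the level was 2170 to 2430 CPM in Tfam-KO and 3050 to 3660 CPM in WT. Cd68 had the highest level of these, with means of 1000 CPM in Tfam-KO and 1260 CPM in WT. Ptprc and Aif1 were not called (log2 fold changes -0.06 and -0.49), and the others of the list were called lower. Sums for astrocyte, neuron and fibroblast markers stayed at or below 2.83 CPM in Tfam-KO and 3.13 CPM in WT, and the oligodendrocyte list, carried mostly by Cnp and Mbp, had 36.0 to 42.3 CPM in Tfam-KO and 62.7 to 66.2 CPM in WT. The part of these markers in the Zfp results was not tested. In bulk RNA, fewer cells of a kind and less RNA per cell cannot be told apart. Nothing in the labels says that each replicate came from its own culture. The p-values therefore speak of the spread among these libraries, which may be technical.

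Zfp genes were higher in Tfam-KO more often than lower. Of the 206 members, all of which were tested, 56 were higher (27.2%), 20 were lower (9.71%) and 130 were not called at an edgeR adjusted p below 0.05. Over all 13403 tested genes, 44.2% were called, 21.3% higher and 22.9% lower. Among the 10004 tested genes that averaged 5 CPM or more, the closer background, 25.7% were higher and 25.8% lower. The share of members higher was thus near the background, and the share lower was below it. The median log2 fold change was 0.12 over members, with quartiles of -0.07 and 0.36, and 0.01 over the genes with at least 5 CPM.

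Changes were small. Only 2 members were called higher at 2-fold or more, Zfp13 and Zfp689, and Zfp395 alone was called lower at that size. That size was reached by 2.97% of all tested genes upward and 5.54% downward, and by 2.09% and 3.73% of those averaging 5 CPM or more. At 1.5-fold or more, 20 members were called higher (9.71%), against 8.21% of all tested genes and 8.12% of those averaging 5 CPM or more. Lower at that size were 8 members (3.88%), against 11.3% of all tested genes and 10.3% of the closer background. Values of the groups did not overlap for 100 members (48.5%), with 52.9% of all tested genes and 59.1% of the closer background. With library totals in place of TMM factors, the median of all genes moved up by 0.10 and members called numbered 77 higher and 16 lower. Over all genes, the share of calls that were higher moved to 61.8% with library totals, from 48.2% with TMM.

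In each library the members together took a small part of the RNA. They held 0.612%, 0.689% and 0.637% of counts in Tfam-KO libraries 1 to 3, and 0.587%, 0.559% and 0.576% in WT libraries 1 to 3. Those are shares of library totals. With TMM factors the members' sums lay closer, at 6026, 6525 and 6143 CPM in Tfam-KO libraries and 5926, 5938 and 5967 CPM in WT libraries. On both scales each Tfam-KO value was above each WT value, and Tfam-KO replicate 2 was the highest. In that library the members' median deviation from their group mean was 0.06 on the log2 scale, with 0.00 over all tested genes. Without it, 42 members were higher and 23 lower. Of the 206, 199 reached 5 CPM in both group means, over library totals. A further 5 did so in Tfam-KO only, of which Zfp689 and Zfp964 were called higher, and 2 in WT only, of which 0 were called. Those 7 are members through 1 group, so a difference in them is tied to how they were chosen.

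**Figure D1:**
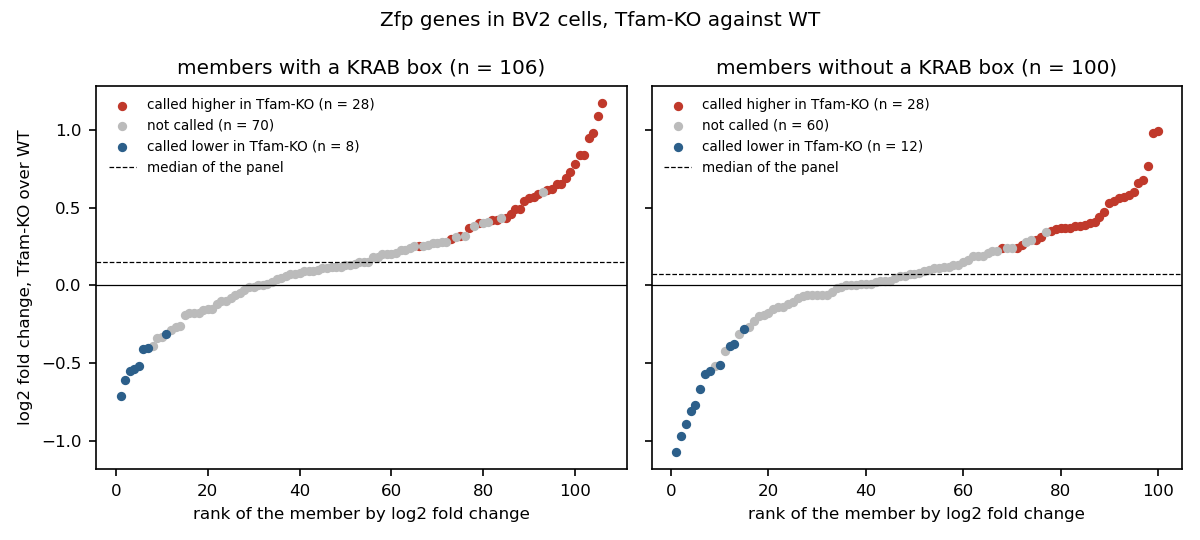
Each point is one Zfp member, ranked along the horizontal axis by its log2 fold change (vertical axis, Tfam-KO over WT), for the 106 members with a KRAB box on the left and the 100 without on the right. Red points were called higher in Tfam-KO, blue points lower and grey points not called; the dashed line is the panel's median, 0.15 for KRAB members and 0.07 for the others.

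Increases were counted for members with a KRAB box and for members without it. Among 106 KRAB members 28 were higher and 8 lower, with a median log2 fold change of 0.15. Among 100 members without the box 28 were higher and 12 lower, with a median of 0.07. At 1.5-fold or more, 14 KRAB members were higher and 2 lower (13.2% and 1.89%), and 6 members without the box were higher and 6 lower (6% each). The 14 include Zfp689 and Zfp964, which passed the floor through Tfam-KO alone, so their increases are tied to how they were chosen. Among tested genes that averaged 5 CPM or more, 8.12% were higher and 10.3% lower at that size. The difference between the classes was not tested. By finger number, the 105 members with at least 10 fingers had 30 higher (28.6%) and 10 lower (9.52%). The 101 with fewer had 26 higher (25.7%) and 10 lower (9.9%). By level, the 103 more abundant members held 29 higher (28.2%) and 14 lower (13.6%). The less abundant 103 held 27 higher (26.2%) and 6 lower (5.83%). The tested genes that averaged 5 CPM or more had 25.7% higher and 25.8% lower.

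Other zinc finger families were counted with the same test but without the floor of 5 CPM, so their counts can include genes of lower level. Of 33 Zbtb genes, which pair C2H2 fingers with a BTB domain, 13 were higher and 8 lower, with a median of 0.22. Of 17 tested Zscan and Zkscan genes, whose proteins carry a SCAN domain, 2 were higher and 2 lower, with a median of -0.01. Of 10 tested Klf genes 2 were higher and 3 lower, with a median of -0.10. Over all tested genes, 21.3% were higher and 22.9% lower. The difference between these families and the Zfp members was not tested.

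**Figure D2:**
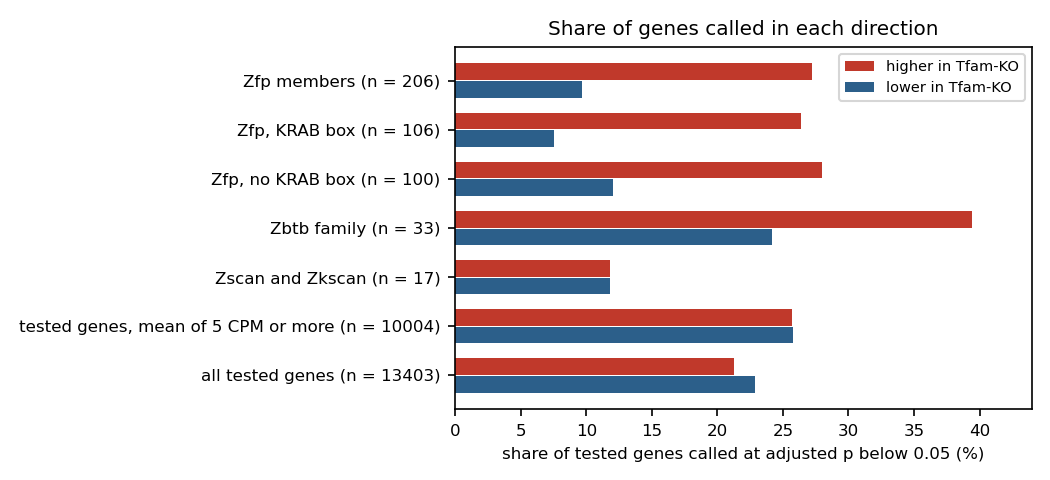
Bars give the share of tested genes (%) called higher (red, upper bar) or lower (blue, lower bar) in Tfam-KO than in WT at an adjusted p below 0.05, for Zfp members, their KRAB classes, 2 related families and the background. Zfp members had 27.2% higher and 9.71% lower, with 25.7% and 25.8% among the 10004 tested genes that averaged 5 CPM or more. The floor of 5 CPM was not applied to the 2 related families.

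The largest increase was that of Zfp13, a KRAB protein with 8 fingers. It measured 12.8, 15.8 and 12.3 CPM in Tfam-KO libraries, against 5.40, 6.84 and 6.15 CPM in WT libraries. The groups did not overlap, and the means were 13.6 ± 1.87 CPM in Tfam-KO and 6.13 ± 0.720 CPM in WT (SD, n = 3 each), a log2 fold change of 1.17 ± 0.16 (SE; edgeR adjusted p = 1.33e-05). Zfp689, also a KRAB gene, rested on low counts, with 175, 115 and 107 reads in Tfam-KO and 130, 41 and 41 in WT. Scaled for depth these were 8.25, 6.60 and 7.45 CPM in Tfam-KO and 4.62, 2.67 and 2.90 CPM in WT (log2 fold change 1.09 ± 0.22). It passed the floor through Tfam-KO alone, with 7.69 CPM in Tfam-KO and 3.30 CPM in WT over library totals. Of its 75-base windows, 12.2% also occur in transcripts of other genes, among them its antisense partner B130055M24Rik, so part of its reads may belong there.

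Zfp341, whose human counterpart activates transcription of STAT3, had 45.3, 42.7 and 42.0 CPM in Tfam-KO libraries, against 21.5, 19.2 and 24.7 CPM in WT libraries. Every Tfam-KO value was above every WT value, and the log2 fold change was 0.99 ± 0.10 (edgeR adjusted p = 8.38e-07). Exons of 4930519P11Rik and Gm14198 lie on the other strand of Zfp341, with 5.33% of its windows shared. Zfp142, the member with most fingers, had 31.0, 31.6 and 36.4 CPM in Tfam-KO and 15.9, 17.3 and 17.1 CPM in WT, a log2 fold change of 0.98 ± 0.11. It overlaps Plcd4 on the other strand, 26.4% of its windows are shared with Plcd4, and the library kit does not mark strand. Zfp827, whose human counterpart brings the NuRD complex to telomeres, averaged 27.6 ± 3.04 CPM in Tfam-KO and 16.2 ± 1.83 CPM in WT (SD, n = 3 each; log2 fold change 0.77 ± 0.12).

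Of the other 5 among the 10 largest increases, all have a KRAB box. Zfp52 was the most abundant of them, with 64.3, 77.2 and 69.1 CPM in Tfam-KO libraries and 35.0, 42.8 and 40.1 CPM in WT libraries (log2 fold change 0.84 ± 0.097; edgeR adjusted p = 2.35e-06). Zfp874b, at 10.6 ± 1.26 CPM in Tfam-KO and 5.91 ± 0.671 CPM in WT, shares 25% of its windows with Zfp874a and the antisense gene model Gm48899, so its reads may be divided between them. Zfp871 varied most within a group. Its values were 21.8, 42.7 and 30.0 CPM in Tfam-KO and 16.8, 19.4 and 19.1 CPM in WT, with Tfam-KO replicate 2 the highest (log2 fold change 0.78 ± 0.17). Zfp869 and Zfp964 are described with their neighbours.

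The largest decrease was that of Zfp395, whose human counterpart is induced by hypoxia. It had 12.8, 12.5 and 11.7 CPM in Tfam-KO libraries, against 24.1, 25.8 and 27.9 CPM in WT libraries. The groups were well apart, with a log2 fold change of -1.07 ± 0.11 (SE; edgeR adjusted p = 7.69e-07). Zfp467, which favours the adipocyte over the osteoblast fate in marrow stroma, averaged 9.85 ± 1.27 CPM in Tfam-KO and 18.4 ± 1.48 CPM in WT (SD, n = 3 each), a log2 fold change of -0.89 ± 0.13. Zfp292, an abundant member with 14 fingers, had 49.6, 60.2 and 56.7 CPM in Tfam-KO and 93.2, 97.2 and 101 CPM in WT (log2 fold change -0.81 ± 0.084).

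Of the 10 largest decreases, 8 have no KRAB box, while 7 of the 10 largest increases have one. Among all 206 members, 106 have one. Of the 7, Zfp689 and Zfp964 passed the floor through Tfam-KO alone, so their increases are tied to how they were chosen. The difference between the 2 lists was not tested. The KRAB genes that fell were Zfp141, at 12.8 ± 2.44 CPM in Tfam-KO and 20.9 ± 1.04 CPM in WT, and Zfp715, at 7.79 ± 1.62 CPM in Tfam-KO and 11.8 ± 0.410 CPM in WT (SD, n = 3 each). Zfp358, Zfp710 and Zfp654 had log2 fold changes of -0.77, -0.57 and -0.55. The remaining decreases, Zfp385a and Zfp36, are RNA-binding proteins.

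**Figure D3:**
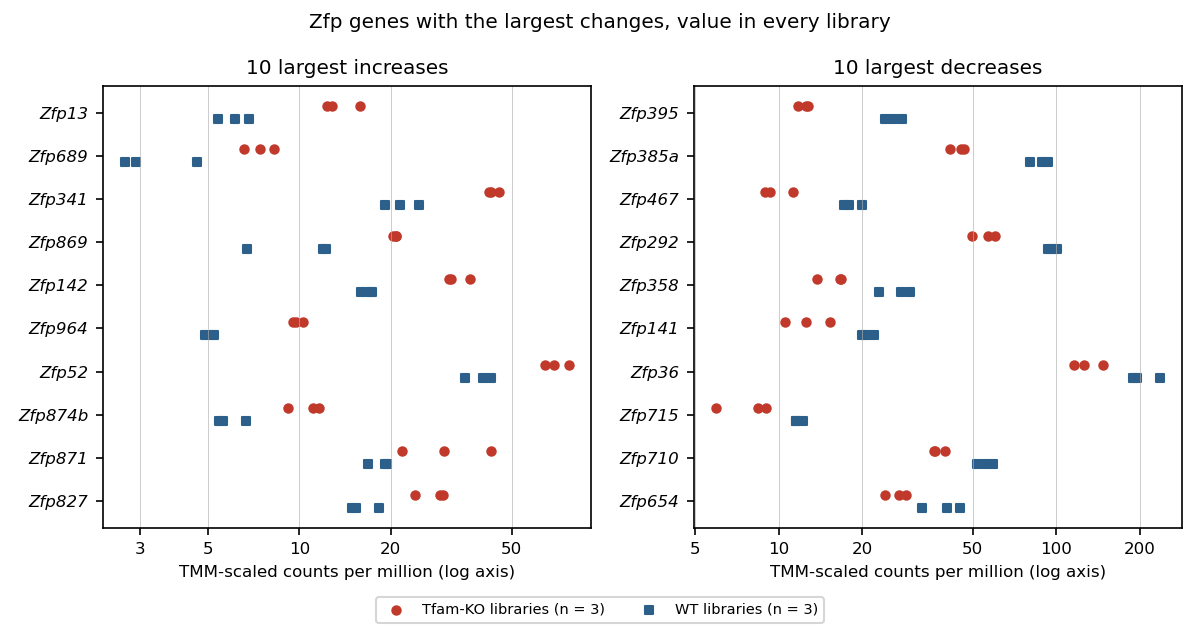
Each point is one library's level in TMM-scaled CPM (horizontal log axis) for the 10 members with the largest increases (left) and the 10 with the largest decreases (right) among called members whose groups do not overlap; red circles are the 3 Tfam-KO libraries and blue squares, just below them, the 3 WT libraries. Zfp871 shows the widest spread within Tfam-KO, from 21.8 to 42.7 CPM.

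Members known to act on RNA, ribosomes or ubiquitin numbered 10, of which 3 were higher and 2 lower, with a median log2 fold change of 0.06. Zfp36 is tristetraprolin, which binds AU-rich elements and speeds the decay of cytokine mRNAs such as Tnf in macrophages. It measured 116, 126 and 147 CPM in Tfam-KO libraries, against 189, 195 and 236 CPM in WT libraries. No Tfam-KO value reached the lowest WT value, and the log2 fold change was -0.67 ± 0.096 (SE; edgeR adjusted p = 2.58e-05). Zfp385a (Hzf), a p53 partner that also binds RNA, had 46.4, 45.4 and 41.5 CPM in Tfam-KO and 80.2, 93.3 and 88.5 CPM in WT. That was a log2 fold change of -0.97 ± 0.085 (edgeR adjusted p = 8.94e-08), again without overlap.

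The 3 increases in that list were modest. Zfp326, part of a complex that links splicing to transcript elongation, averaged 58.1 ± 2.50 CPM in Tfam-KO and 45.0 ± 1.66 CPM in WT (SD, n = 3 each; log2 fold change 0.37 ± 0.083, edgeR adjusted p = 0.00174). Zfp598, the ubiquitin ligase that senses collided ribosomes, averaged 108 ± 2.64 CPM in Tfam-KO and 90.1 ± 6.77 CPM in WT (edgeR adjusted p = 0.00933, and 0.0559 without WT replicate 2). Zfp346, which binds double-stranded RNA, had a log2 fold change of 0.29 ± 0.087 (edgeR adjusted p = 0.0124, but 0.065 without WT replicate 2 and 0.0665 without Tfam-KO replicate 2).

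Several of the most abundant members were in this list and showed small differences. Zfp106, an RNA-binding protein needed by motor neurons, had 283, 322 and 295 CPM in Tfam-KO and 303, 283 and 276 CPM in WT, and the groups overlapped (log2 fold change 0.06 ± 0.077; edgeR adjusted p = 0.550). It shares 24.7% of its windows with Gm26899 on the other strand, so part of its reads may belong there. Zfp207 (BuGZ), which helps chromosomes align on the spindle, averaged 207 ± 9.26 CPM in Tfam-KO and 206 ± 12.6 CPM in WT. Zfp622, whose yeast relative matures the large ribosomal subunit, averaged 171 ± 10.2 CPM in Tfam-KO and 164 ± 11.3 CPM in WT. Zfp91, a ubiquitin ligase of NF-kB signalling, averaged 146 ± 1.18 CPM in Tfam-KO and 131 ± 3.87 CPM in WT, a log2 fold change of 0.16 ± 0.068 that missed the threshold (edgeR adjusted p = 0.0659). Zfp91 passed it with library totals (adjusted p = 0.0063).

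Per kilobase of exon, the members with the highest levels were largely these. On that scale Zfp36 had 37.4 CPM per kilobase in Tfam-KO and 59.5 in WT, and Zfp385a had 17.7 in Tfam-KO and 34.7 in WT. Zfp207 stood at 31.0 CPM per kilobase in Tfam-KO and 30.9 in WT, and Zfp106 at 28.8 in Tfam-KO and 27.6 in WT. Zfp692, chosen after its values were seen, had 34.6 CPM per kilobase in Tfam-KO and 45.2 in WT and was called lower (log2 fold change -0.39 ± 0.086). In WT libraries Zfp36 thus led Zfp692, while in Tfam-KO libraries the pair lay close together.

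Transcriptional regulators without a KRAB box and with a described role numbered 17, of which 4 were higher (23.5%) and 2 lower (11.8%), with a median of 0.09. The tested genes that averaged 5 CPM or more had 25.7% higher and 25.8% lower. The 17 all lacked a KRAB box by choice of the list. All had a C2H2 match except Zfp503 and Zfp703. Zfp503 (Nolz1), a corepressor of striatal development, had 12.9, 14.8 and 15.7 CPM in Tfam-KO libraries, against 8.31, 9.31 and 9.47 CPM in WT libraries. The groups did not overlap (log2 fold change 0.68 ± 0.14; edgeR adjusted p = 0.000656). Its relative Zfp703 was also higher, by 0.44 ± 0.13 (edgeR adjusted p = 0.0113, but 0.0536 without WT replicate 3 and 0.0628 without Tfam-KO replicate 3). Of the Zfp703 windows, 10.2% are shared with Gm45371 on the other strand. Zfp462, linked to heterochromatin and pluripotency, averaged 26.3 ± 2.52 CPM in Tfam-KO and 18.9 ± 2.66 CPM in WT (log2 fold change 0.47 ± 0.12). Zfp281, a regulator of pluripotency genes, had a log2 fold change of 0.24 ± 0.092 (edgeR adjusted p = 0.0443). Its call was lost when any library but WT replicate 2 was left out, with adjusted p up to 0.127.

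The 2 decreases were Zfp467, given above, and Zfp219, a partner of Sox9 in cartilage, at 37.9 ± 4.87 CPM in Tfam-KO and 49.6 ± 2.75 CPM in WT (SD, n = 3 each; edgeR adjusted p = 0.00494). Zfp219 overlaps exons of Arhgef40 and Tmem253 on the other strand, with 7.20% of its windows shared. The 11 members not called ran from Zfp296, with a log2 fold change of -0.52 ± 0.22 at 4.82 ± 0.663 CPM in Tfam-KO and 7.10 ± 1.83 CPM in WT, to Zfp335, with 0.21 ± 0.087. Zfp410, known as an activator of Chd4 transcription, averaged 65.5 ± 2.54 CPM in Tfam-KO and 57.4 ± 1.35 CPM in WT (log2 fold change 0.19 ± 0.078; edgeR adjusted p = 0.0537). Chd4 itself is given with the corepressors.

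KRAB members with described targets numbered 8, with 1 higher and 1 lower (12.5% each) and a median of 0.09. The tested genes that averaged 5 CPM or more had 25.7% higher and 25.8% lower. Zfp746 (PARIS), which represses the mitochondrial biogenesis factor Ppargc1a and is a substrate of parkin, had 18.6, 17.1 and 18.6 CPM in Tfam-KO libraries, against 12.6, 12.4 and 13.8 CPM in WT libraries. All Tfam-KO values were above all WT values (log2 fold change 0.49 ± 0.12; edgeR adjusted p = 0.00265). Zfp932, which binds endogenous retroviruses, had 10.2, 7.29 and 7.45 CPM in Tfam-KO and 12.2, 11.5 and 12.4 CPM in WT (log2 fold change -0.52 ± 0.15; edgeR adjusted p = 0.0109, but 0.0511 without Tfam-KO replicate 3). It shares 32.6% of its windows with close relatives such as Gm15446, so its value is uncertain.

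The other 6 were not called. Zfp809, which recruits TRIM28 to retroviral primer binding sites, averaged 11.5 ± 1.12 CPM in Tfam-KO and 12.9 ± 0.457 CPM in WT. Zfp568, the repressor of a placental Igf2 transcript, averaged 24.1 ± 1.37 CPM in Tfam-KO and 24.3 ± 1.88 CPM in WT, and Zfp445, which guards imprints, 76.3 ± 13.7 CPM in Tfam-KO and 74.0 ± 8.56 CPM in WT. Zfp110 and Zfp369, both partners of the p75 neurotrophin receptor, had log2 fold changes of 0.20 ± 0.11 and 0.13 ± 0.11, and Zfp961 had 0.40 ± 0.16 (edgeR adjusted p = 0.0560).

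**Figure D4:**
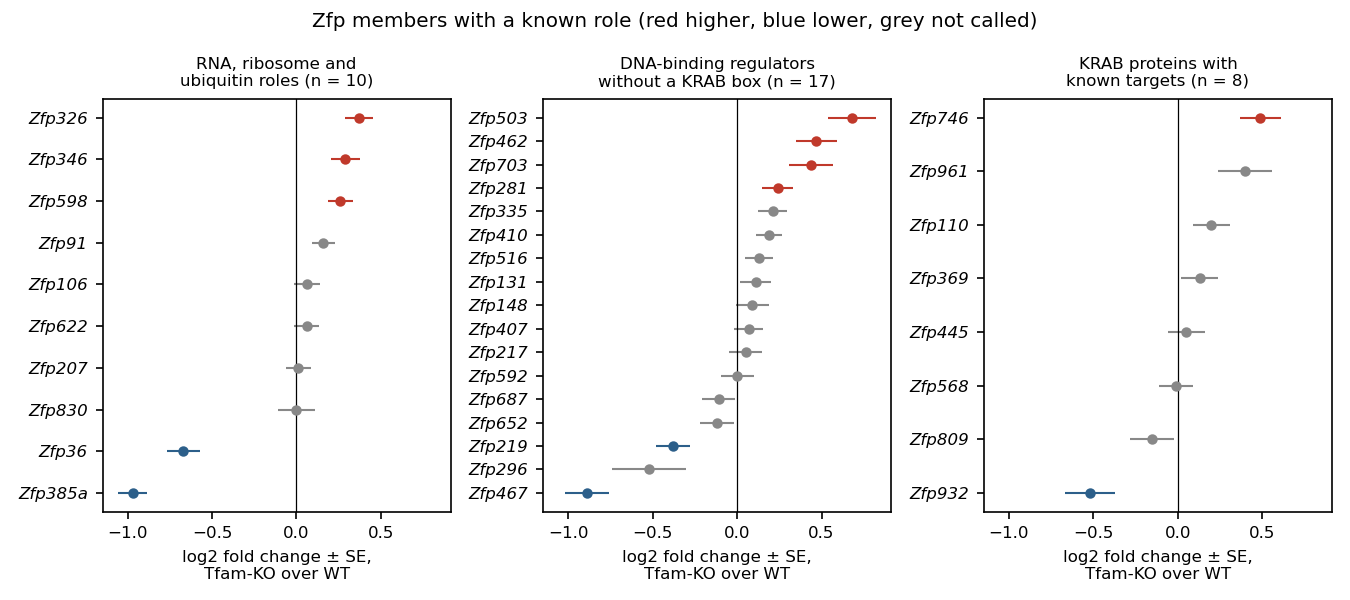
Log2 fold change, Tfam-KO over WT (horizontal axis, bars are ± 1 standard error of the edgeR fit, 3 libraries per group), for the 35 members in 3 lists of described roles. Red members were called higher, blue lower and grey not called. Zfp385a at -0.97 and Zfp503 at 0.68 lie at the ends. The panel of DNA-binding regulators includes Zfp503 and Zfp703, which had no C2H2 match.

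Repressive chromatin genes, among them the machinery that KRAB boxes recruit, were followed as a list of 25 genes. Of these, 9 were higher and 3 lower, with a median log2 fold change of 0.12. Among the 10004 tested genes that averaged 5 CPM or more, 25.7% were higher and 25.8% lower. The difference from that background was not tested. The list also holds genes such as Daxx, Uhrf1 and Dnmt3a, so its counts do not describe the TRIM28 partners alone. Setdb1 measured 195, 203 and 217 CPM in Tfam-KO libraries, against 154, 140 and 140 CPM in WT libraries, without overlap (log2 fold change 0.50 ± 0.074; edgeR adjusted p = 3.21e-05). Trim28 was 210 ± 12.7 CPM in Tfam-KO and 179 ± 6.63 CPM in WT (SD, n = 3 each; log2 fold change 0.23 ± 0.073, edgeR adjusted p = 0.0176). That call did not hold without WT replicate 2, WT replicate 3 or Tfam-KO replicate 1 (adjusted p = 0.0612, 0.0626 and 0.065). Cbx5, which encodes HP1 alpha, had the largest increase of the list, 158 ± 11.5 CPM in Tfam-KO and 98.7 ± 11.2 CPM in WT (log2 fold change 0.68 ± 0.087).

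The histone chaperone Daxx had a log2 fold change of 0.57 ± 0.084, and Uhrf1, which guides maintenance DNA methylation, one of 0.56 ± 0.094. Chd4, the NuRD remodeller, moved the other way, with 257, 269 and 262 CPM in Tfam-KO libraries and 382, 383 and 382 CPM in WT libraries (log2 fold change -0.54 ± 0.071; edgeR adjusted p = 9.53e-06). Ehmt2 and Dnmt3a were the other decreases, at -0.28 and -0.20, and were chosen after their values were seen. Neither of these last calls held with library totals. With each of the 6 libraries left out in turn, the Dnmt3a call held in 1 fit (edgeR adjusted p up to 0.196). The Ehmt2 call held in 5 such fits (up to 0.0618).

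Zfp genes lie unevenly on the chromosomes, with 50 members on chromosome 7, 28 on chromosome 17 and 14 each on chromosomes 8 and 13. On chromosome 8, 9 members were higher and 1 lower, with a median log2 fold change of 0.40, while of the other tested genes there with at least 5 CPM 25.2% were higher and 31.4% lower, with a median of -0.01. On chromosome 17, 10 members were higher and 1 lower, with a median of 0.25, against 22.5% higher and 28.2% lower and a median of -0.01 for its other genes. On chromosome 7, 10 of 50 members were higher and 5 lower, with a median of 0.05, against 20.8% higher and 30.3% lower and a median of -0.04 for its other genes. These chromosomes were singled out after their values were seen, and no difference between chromosomes was tested.

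**Figure D5:**
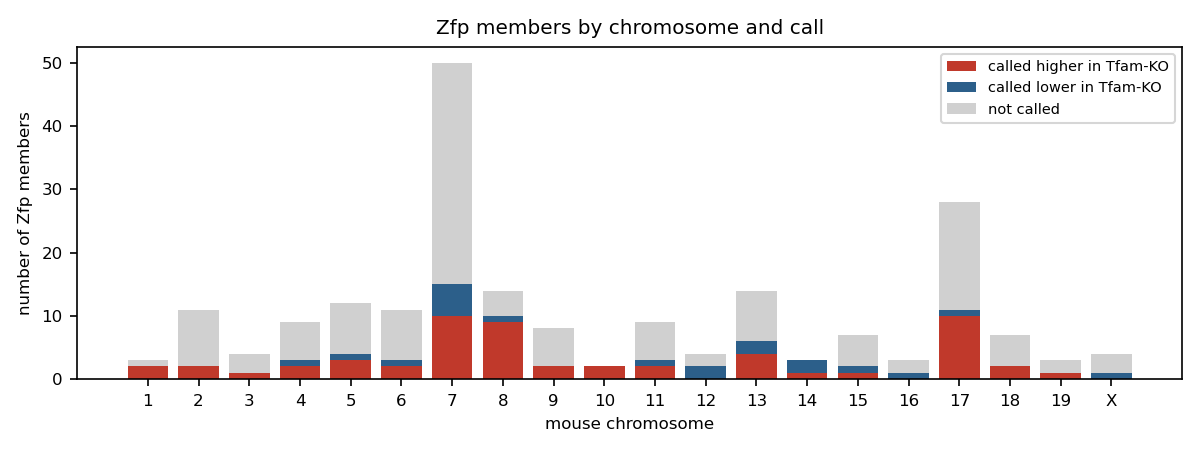
Number of Zfp members on each mouse chromosome (bars stacked as called higher in Tfam-KO in red, called lower in blue and not called in grey). Chromosome 7 holds most members, 50, and chromosomes 8 and 17 hold 9 and 10 members called higher.

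Members that stand next to each other in the genome were compared as runs, a run being consecutive protein-coding RefSeq genes with Zfp symbols. In runs with at least 3 such genes lay 73 members, of which 24 were higher (32.9%) and 3 lower (4.11%), with a median of 0.18. Members with no Zfp neighbour numbered 109, with 28 higher (25.7%) and 16 lower (14.7%) and a median of 0.11. Among all tested genes that averaged 5 CPM or more, 25.7% were higher and 25.8% lower. No difference between these groups was tested. A chromosome 8 run of 5 such genes held 3 members, all called higher, and 2 genes below the floor, Zfp963 and Zfp866, neither called. Zfp869 had 20.8, 20.4 and 20.8 CPM in Tfam-KO libraries, against 12, 12.2 and 6.72 CPM in WT libraries, and Zfp964 had 9.76, 10.3 and 9.54 CPM in Tfam-KO and 4.90, 5.21 and 5.23 CPM in WT. The groups did not overlap in either gene, with log2 fold changes of 0.98 ± 0.17 and 0.95 ± 0.16 (edgeR adjusted p = 0.000138 and 0.000109). Zfp964 passed the floor through Tfam-KO alone, with 10.2 CPM in Tfam-KO and 4.94 CPM in WT over library totals.

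The third member of that run, Zfp868, changed less, with 11.6, 13.3 and 18.2 CPM in Tfam-KO and 11.1, 10.3 and 10.9 CPM in WT (log2 fold change 0.40 ± 0.16; edgeR adjusted p = 0.0463). Its call was lost without Tfam-KO replicate 3, the highest library, and without each WT library in turn. Zfp869 shares 5.21% of its windows with Zfp868. Zfp963 went the other way without a call, with 1.41, 1.03 and 0.766 CPM in Tfam-KO and 1.85, 1.56 and 2.19 CPM in WT (log2 fold change -0.77 ± 0.36; edgeR adjusted p = 0.091). Zfp866 averaged 1.42 CPM in Tfam-KO and 1.28 CPM in WT (log2 fold change 0.12 ± 0.37). The run as a whole was thus not uniform.

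Other runs were mixed. In the chromosome 17 run of Zfp677, Zfp51, Zfp53, Zfp52 and Zfp948, 2 of 5 members were higher, Zfp52 and Zfp948 (log2 fold changes 0.84 and 0.42), and the other 3 had 0.43, 0.20 and 0.23 without a call; 1 more tested gene, below the floor, was not called. In the chromosome 13 run with 7 members, Zfp874a, Zfp874b and Zfp748 were higher, by 0.69, 0.84 and 0.73, and Zfp493 at the far end was lower, at -0.41 (edgeR adjusted p = 0.0309, a call lost in 7 of the alternative settings). The 6 other tested genes of that run lay below the floor and were not called. In the chromosome 7 run of 10 members from Zfp84 to Zfp146, 4 were higher (Zfp790, Zfp940, Zfp382 and Zfp146, at 0.65, 0.62, 0.49 and 0.39) and the other 6 lay between -0.18 and 0.12. Of these calls only that of Zfp940 held in every setting. Zfp790 lost its call without Tfam-KO replicate 2 (adjusted p = 0.0971), and Zfp382 and Zfp146 each lost theirs in 3 of the settings that left out a library (adjusted p up to 0.0804 and 0.0953). Of 2 tested genes of the run below the floor, 1 was higher. Run members outside the lists of largest changes were named after their values were seen.

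Shared sequence and overlap in annotation touched part of the members. In 27 members at least 10% of 75-base windows also occur in transcripts of other genes, with 8 higher and 1 lower and a median of 0.21, and in the other 179 members 48 were higher and 19 lower, with a median of 0.11. An exon of another gene lies on the opposite strand in 46 members, of which 16 were higher and 3 lower (median 0.20), while in the other 160 members 40 were higher and 17 lower (median 0.11).

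At the floor of 5 CPM, the 3 members just inside were Zfp383, Zfp59 and Zfp113, with means over the 6 libraries of 5.16, 5.17 and 5.22 CPM over library totals. Their log2 fold changes were 0.00, 0.26 and -0.39, none called. Just outside lay Zfp956, Zfp595 and Zfp947, with means of 4.98, 4.94 and 4.87 CPM and log2 fold changes of 0.82, 0.20 and -0.51. Zfp956 was called higher (edgeR adjusted p = 0.00416) and Zfp595 was not called. Zfp947 was called lower (edgeR adjusted p = 0.0468), a call lost in several alternative settings.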

How the data were processed

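RNA-seq of BV2 cells was compared between 3 libraries labelled Tfam-KO and 3 labelled WT. Per the labels' protocols, TRIzol was used for extraction and a NEBNext Ultra RNA kit, an unstranded one, for the libraries. The authors' processing notes name bcl2fastq 2.17, HISAT2 2.1.0, SAMtools 1.9, featureCounts 2.0.0 and the build GRCm39. The sources used here do not give the treatment of multi-mapping reads. The table the authors deposited holds raw counts. A second deposited table holds log2 values scaled to a common library total by the authors, from the values, and served 1 alternative.

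Counts were tested with edgeR 4.0.16 under R 4.3.3 (TMM factors after filterByExpr, quasi-likelihood F-test, no covariates), with Benjamini-Hochberg adjustment over all 13403 genes tested. The other 4469 genes had too few counts. Calls needed an adjusted p below 0.05, and each standard error was computed as the absolute log2 fold change divided by the root of F. The step was tested on simulated data. Alternatives were DESeq2 1.42.0, limma 3.58.1 on the log2 table, other scalings and filters, a block for the replicate number, leaving out each library, and, added after seeing the data, offsets for length and GC content.

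Fingers were counted in the longest reading frame of GENCODE M21 transcripts (C-x2-4-C-x12-H-x2-6-H), and KRAB boxes were found with pyhmmer 0.12.3 at an E-value below 1e-05. The profile was built from 81 proteins with matching Zfp symbols, whether or not they passed the floor. Shared windows of 75 bases and opposite-strand exons came from GENCODE M21, and gene order and promoters from RefSeq, all on GRCm38, so no position on the authors' build is given. Members and gene lists were chosen with earlier results of these data known. Genes named were, of called members without overlap, the 10 that increased and the 10 that decreased most, the 5 most abundant, 3 on each side of the floor, the members of 3 role lists, Tfam, Trim28, Setdb1 and the 4 corepressor genes with the largest called change. No replicates were found to be the same library.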

Additional observations from a re-analysis of the deposited data

How the results depend on the processing

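Members called higher numbered 42 to 77 and members called lower 16 to 25 over all alternatives, within 1.5 times of 56 and 20. The median log2 fold change of members, 0.12, moved to 0.22 with library totals and to 0.21 with limma on the authors' log2 table, which shift the median of all genes by 0.10 and 0.09; leaving out 1 library gave 0.11 to 0.16, the highest without Tfam-KO replicate 1. Of the 56 and 20 calls, 31 and 15 held in every setting and without each library in turn. Among the 65 genes named by rule and tested, 7 of 38 calls were lost in at least 1 setting, 10 genes gained a call in at least 1, and 0 changed sign. Zfp947, just below the floor, lost its call in 9 settings. With the replicate number as a block, 46 members were higher and 17 lower, and 5255 genes were called in all. Same-numbered libraries did not deviate together (correlations -0.10, -0.11 and 0.04), so the numbers were not taken to pair them. Member transcripts were longer and lower in GC than those of all tested genes (medians of 3760 bases and 44.7%, with 3132 bases and 49.4%); offsets for both gave 56 members higher and 25 lower. With 3 libraries a group, changes under 1.5-fold in members near 5 CPM are poorly resolved.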

Other observations

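The largest change of any tested Zfp symbol lay below the floor of 5 CPM. Zfp811, a KRAB gene with 13 fingers, had 167, 179 and 117 reads in Tfam-KO libraries, against 14, 5 and 9 reads in WT libraries. Scaled, this was 8.77 ± 1.31 CPM in Tfam-KO and 0.486 ± 0.156 CPM in WT (SD, n = 3 each), a log2 fold change of 4.16 ± 0.28 (edgeR quasi-likelihood test with Benjamini-Hochberg adjustment, adjusted p = 3.18e-09), and the call held in every setting tried. Its mean over the 6 libraries, 4.78 CPM over library totals, was just below the floor. Zfp811 lies next to Zfp871 on chromosome 17 in the RefSeq order. From Zfp871 to Zfp101, 12 protein-coding genes have Zfp symbols, 11 were tested and 6 were higher (Zfp871, Zfp811, Zfp952, Zfp955a, Zfp81 and Zfp101), with 0 lower at adjusted p below 0.05. Over all tested genes, 21.3% were higher and 22.9% lower, and the difference of the stretch from that background was not tested. The calls of Zfp871, Zfp811 and Zfp81 held in every setting. That of Zfp952 was lost without Tfam-KO replicate 3 (adjusted p = 0.0526), that of Zfp955a in 6 settings and that of Zfp101 in 8, with adjusted p up to 0.121 and 0.203 when a library was left out. The 2 other tested genes of the stretch gave 1 higher and 1 lower. This stretch and the genes in this section were chosen after their values were seen.

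Of the 80 tested symbols below the floor, 7 were higher (8.75%) and 6 lower (7.5%), with 21.3% and 22.9% over all tested genes. Zfp112 averaged 3.15 CPM in Tfam-KO and 0.877 CPM in WT (log2 fold change 1.76 ± 0.33). Zfp532 averaged 3.25 CPM in Tfam-KO and 5.93 CPM in WT (log2 fold change -0.86 ± 0.21).

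The relatives of tristetraprolin, whose symbols fall outside the Zfp-and-number pattern, differed from each other. Zfp36l1 had 7.50, 6.60 and 5.99 CPM in Tfam-KO libraries, against 16, 27.2 and 20.9 CPM in WT libraries, without overlap (log2 fold change -1.65 ± 0.18; edgeR adjusted p = 9.91e-07). Zfp36l2 averaged 130 CPM in Tfam-KO and 125 CPM in WT and was not called. With Zfp36 at -0.67, 2 of these 3 mRNA decay factors were lower in Tfam-KO; the difference between them was not tested.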
